A study of Homo sapiens with 6 samples.

Results

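Baseline gene expression was described in HepG2, a human liver tumour line that grows as an epithelial monolayer, from the 3 arrays of cells that had received the solvent DMSO alone for 24 h. These are all 3 of the arrays titled as HepG2 control, out of 6 arrays in the series, and they were chosen by title and not by any measured value. The labels class the line as hepatocellular carcinoma, and the literature also describes it as a hepatoblastoma line. The other 3 arrays held cells given sorafenib, a kinase inhibitor, and were not read. They bear only on 1 alternative in the closing section, the authors' own processed values, which were normalized over all 6 arrays. The labels name 1 cell line, 1 solvent and 1 time. They state no DMSO concentration and do not say whether the replicates were separate cultures, so the spread between arrays may be technical. With 1 group there was no comparison between conditions and no test was made.

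Hepatocytes make most of the proteins of blood plasma, turn ammonia into urea, store and release glucose, build bile acids and oxidise drugs through cytochrome P450 enzymes. A small circuit of transcription factors, among them the HNF1, HNF4, FOXA and C/EBP families, keeps these genes on. The fetal liver already makes plasma proteins, but it also expresses genes that are switched off after birth, such as AFP and DLK1, and tumours of the liver often express these again. HepG2 is widely used as a stand-in for hepatocytes, so which of these programmes it expresses when untreated is the background to any drug comparison made in it.

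Biotin-labelled cRNA had been hybridised to Illumina BeadChips, which carry bead-bound probes read by fluorescence. A level here is the background-corrected intensity of a probe on a log2 scale after the 3 arrays were brought to one distribution, so a step of 1 is a doubling of signal. A probe was called detected on an array when its deposited detection p-value was under 0.05, and a gene was called detected when at least 1 of its probes was detected on all 3 arrays. Each gene took the level of its brightest detected probe. Signal also depends on how well a probe binds, so the rank of a gene is a rank of probe signals and not of transcript amounts, and "not detected" means not above background for the probes on the array.

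Of 20046 genes with a named probe, 10800 (53.9%) were detected on all 3 control arrays, 1503 on only 1 or 2 arrays, and 7743 (38.6%) on none. That 53.9% is the share to set beside each list count below, and for protein-coding genes alone the share was 57.9%. Counted by probe, 14142 of the 30113 probes that carry a single gene symbol were detected on all 3 arrays, which is 47.0%. Detected genes lay between 5.68 and 15.86, with quartiles at 7.70, 9.50 and 11.12. The brightest 10% of them, 1080 genes at or above 12.45, are called abundant below, those between the quartiles at 7.70 and 11.12 moderate, and those under 7.70 low. The 3 arrays had mean intensities of 974, 938 and 739, and 42.1 to 42.6% of all 47323 probes were detected on each. Across detected genes the arrays correlated pairwise at 0.993 to 0.996. The median SD of a gene over the 3 arrays was 0.11 and the 90th percentile was 0.26. These SDs measure the spread between arrays after quantile normalization, and not the error of a gene's level. Detected probes of the same gene differed by a median of 1.73 from brightest to dimmest. Olfactory receptors, genes of the nasal epithelium that should be silent in liver cells, gave a measure of stray signal: 10 of 383 (2.61%) were detected, 348 were not detected on any array, and the highest level was 7.42. A detected gene at or below that level is therefore given as detected but within the range of stray signal.

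**Figure D1:**
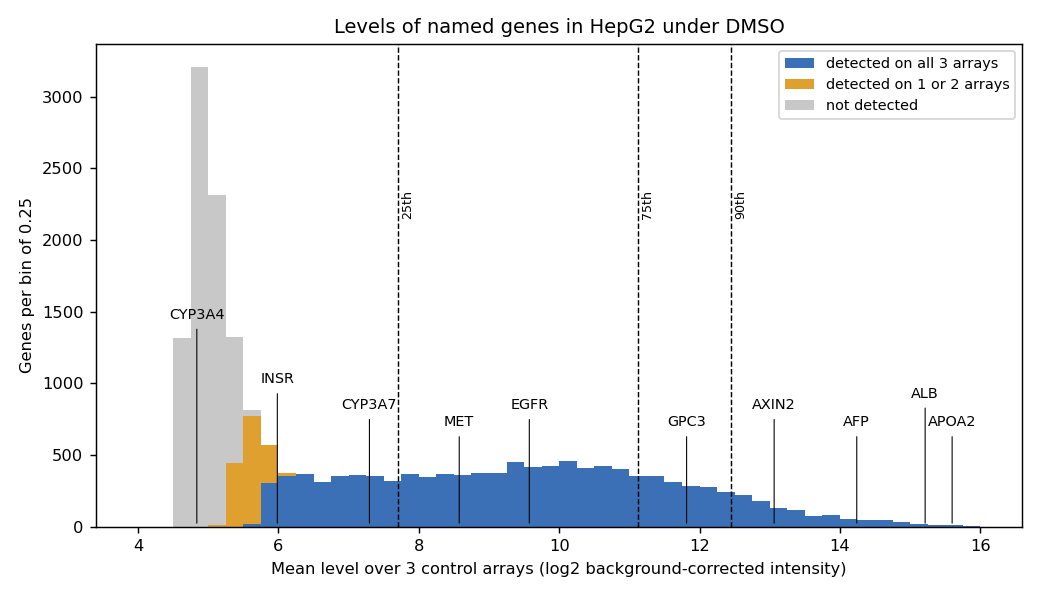
Number of genes (y axis) by mean level over the 3 HepG2 control arrays (x axis, log2 background-corrected intensity, bins of 0.25), with genes detected on all 3 arrays in blue, on 1 or 2 arrays in orange and on none in grey. Undetected genes form a narrow peak near 5, detected genes spread from 5.68 to 15.86, and the dashed lines mark the 25th, 75th and 90th percentiles of detected genes.

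Promoters of detected plasma protein genes were read from RefSeq (assembly GRCh38.p14). They show the sequence in front of the genes that hepatocytes are best known for. Promoters were listed for 28 of the 37 detected genes, and some genes had more than 1. GTTAAT is an arm of the palindromic site bound by the HNF1 factors. On either strand of the 250 bases before a gene start, it was found in 8 of the 38 promoters listed for detected plasma protein genes (21.1%), against 2188 of all 35116 promoters (6.2%). The 12656 promoters of all detected genes, listed for 8754 genes, held it in 4.0%. The 67 promoters listed for 57 detected ribosomal protein genes, RPLP1 and RPLP2 left out, held it in 1.5%. The TATA motif TATAAA was found in 15.8% of the plasma protein promoters, 5.9% of those of all detected genes and 10.7% of all promoters. Bases differ between these sets, with a median GC content of 54.4% in plasma protein promoters, 64.4% in those of all detected genes and 58.0% in all promoters, and a match is only a run of letters, not a bound site. The 8 promoters belong to ALB, SERPINA1, APOH, SAA4, FGA, F2 and FGB, of which F2 and FGB had levels of 7.36 and 6.72, within the range of stray signal. The following are the 150 bases before the start of 3 of them and of AFP, 5′ to 3′ on the gene's own strand, with GTTAAT in capitals.
ALB, chr4:73404137-73404286, + strand, motif starting 61 bases before the gene start: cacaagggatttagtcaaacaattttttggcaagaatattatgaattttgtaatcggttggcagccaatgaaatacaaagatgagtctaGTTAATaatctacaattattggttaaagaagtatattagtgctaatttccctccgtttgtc
AFP, chr4:73436071-73436220, + strand, motif starting 132 bases before the gene start: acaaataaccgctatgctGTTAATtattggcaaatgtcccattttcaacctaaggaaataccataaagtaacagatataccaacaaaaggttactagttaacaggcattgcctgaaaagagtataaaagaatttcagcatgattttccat
SERPINA1, chr14:94388603-94388752, − strand, motif starting 76 bases before the gene start: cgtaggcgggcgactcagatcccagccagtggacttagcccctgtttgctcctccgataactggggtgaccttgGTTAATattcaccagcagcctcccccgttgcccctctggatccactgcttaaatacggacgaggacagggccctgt
APOH, chr17:66229416-66229565, − strand, motif starting 49 bases before the gene start: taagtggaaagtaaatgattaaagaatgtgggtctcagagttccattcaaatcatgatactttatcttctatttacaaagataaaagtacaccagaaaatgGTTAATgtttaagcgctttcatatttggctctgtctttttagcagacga

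The brightest signals belonged to the translation machinery and to a handful of liver genes. EEF1A1, the translation elongation factor that brings tRNA to the ribosome, ranked 1 at 15.86 on each array, with all 4 of its probes detected. FTL, the ferritin light chain that stores iron, read 15.84, 15.88 and 15.84, and TPT1, a small conserved protein of growing cells, read 15.79, 15.73 and 15.79. Ribosomal protein genes made up 22 of the 100 brightest genes, a count by symbol that leaves out RPLP1 and RPLP2, also among the 100. RPS12, RPLP2, RPL6, RPL41, RPS29, RPS19, RPS10 and RPL18 were among the first 20 at 15.39 to 15.69. The mitochondrial ATP synthase subunit ATP5F1B had a mean of 15.51, and the cytoskeletal actins ACTB and ACTG1 had means of 15.44 and 15.37. The liver genes among the first 20 were AKR1C2, a steroid-reducing dehydrogenase at rank 4, and the apolipoproteins APOA2 at rank 8 and APOA1 at rank 11.

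Not every bright probe was borne out by the other probes of its gene. AKR1C2 read 15.75, 15.84 and 15.71, but it had 6 probes, of which 3 were not detected on any array, and it belongs to a family of near-identical genes whose signals a probe may not separate. LAIR1, an inhibitory receptor of immune cells, ranked 12 at 15.54, while its other probe averaged 5.30 and was not detected on any array. CLUAP1, a protein of cilia, ranked 16 at 15.45, while its other 4 probes averaged 6.66 to 9.04. SLC7A5P2, a pseudogene of an amino acid transporter, ranked 19 at 15.38, against 5.97 and 5.69 for its other probes. Among the 57 of the 100 brightest genes that had several probes, 9 had a probe that was not detected on any array. Over all detected genes with several probes this was so for 1926 of 4239 (45.4%), and the median gap between the brightest and the dimmest detected probe of a gene was 1.73 over 2726 genes.

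Plasma proteins, the secreted products by which hepatocytes are best known, were mostly detected and mostly bright. Of 45 such genes with a probe, 37 (82.2%) were detected on all 3 arrays, against 53.9% of all named genes, and 19 of the 37 were abundant. Their median level was 12.74, against 9.50 over all detected genes. APOA2, the second most plentiful protein of high-density lipoprotein, read 15.64, 15.57 and 15.58, and APOA1, its main structural protein, read 15.52, 15.54 and 15.63. Both sat above the 99th percentile of detected genes, and no array stood apart for either. ALB, which encodes serum albumin, read 15.15, 15.08 and 15.42, a mean of 15.21 ± 0.18 (SD, n = 3), and its second probe averaged 14.42. TF, the iron carrier transferrin, read 15.06, 15.05 and 15.22. For ALB and TF alike, replicate 3 was the highest array.

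Other members of the plasma list spread over the whole range of levels, from 5.83 to 15.60, and 33 of the 37 detected lay above the highest olfactory receptor. Among lipid carriers, APOE averaged 14.51, APOB, the scaffold of low-density lipoprotein, 14.36, and APOC3 and APOC1 13.04 each. The alpha-1 acid glycoproteins ORM1 and ORM2 averaged 13.94 and 13.70, and HAMP, the hormone hepcidin that limits iron uptake, averaged 14.27 ± 0.05. SERPINA1, the protease inhibitor alpha-1 antitrypsin, read 14.77, 14.88 and 15.02 at rank 59, with 2 detected and 2 undetected probes. The fibrinogen chains were unequal in signal: FGG averaged 11.38 and FGA 10.33, both moderate or above, while FGB averaged 6.72 with its other probe not detected. HPX, which binds haem, averaged 9.97, AMBP, the precursor of bikunin, 9.16, and TTR, a thyroid hormone carrier, 8.17. These 3 were detected on every array and stood in the moderate class. The 5 members not detected on any array were CP (ceruloplasmin), F9 (clotting factor IX), PLG (plasminogen), ITIH4 (an inter-alpha-trypsin inhibitor chain) and CRP (C-reactive protein).

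**Figure D2:**
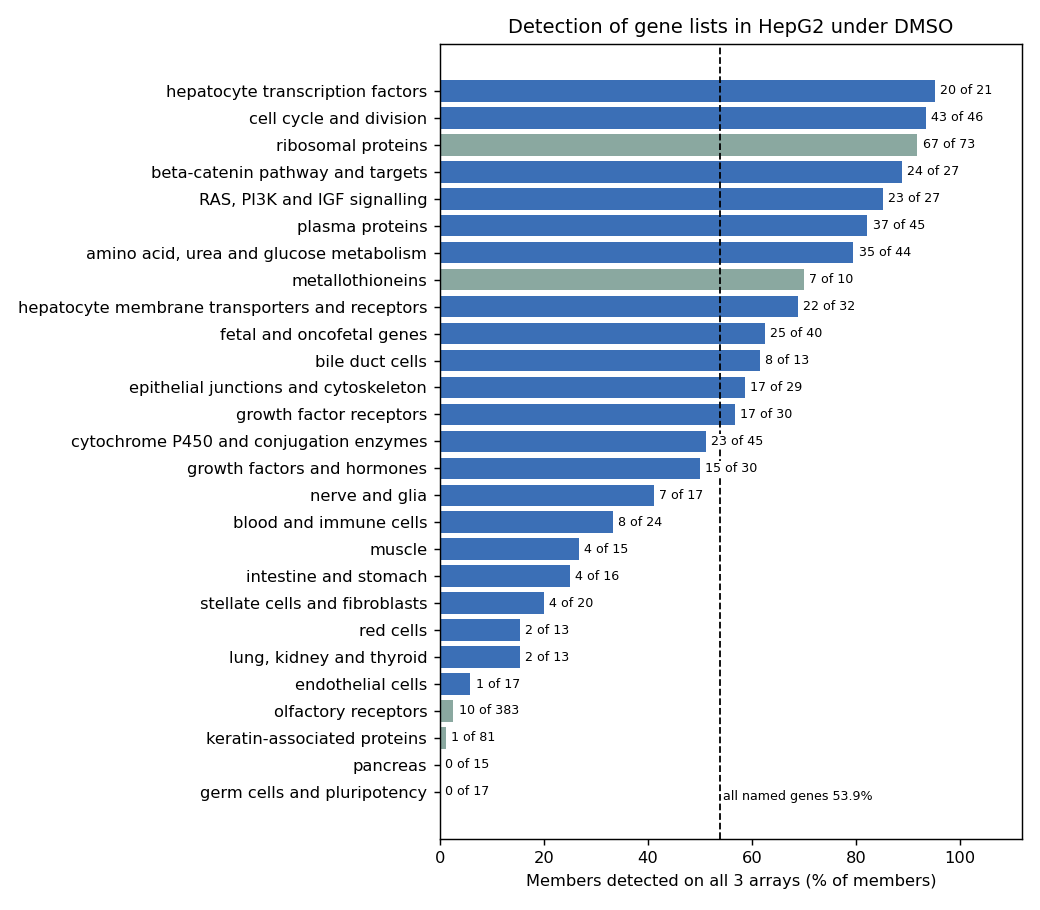
Share of each gene list detected on all 3 HepG2 control arrays (x axis, % of members with a named probe), with the counts beside the bars, with the 4 lists taken by symbol pattern in green and the others in blue. The dashed line is the 53.9% of all named genes. Hepatocyte transcription factors (20 of 21) and cell cycle genes (43 of 46) stand highest, and pancreas (0 of 15) and germ cell genes (0 of 17) lowest.

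Transcription factors of the hepatocyte were nearly all detected. Of 21 with a probe, 20 (95.2%) were detected on all 3 arrays, against 53.9% of all named genes. Among the 20, 16 lay above the highest olfactory receptor and 5 were abundant. The median of the 20 was 10.07, against 9.50 over all detected genes. CEBPA, which drives the genes of mature hepatocytes, read 12.94, 13.05 and 13.31. FOXA2, a pioneer factor of the endoderm, read 12.78, 12.84 and 12.75, while its other 2 probes were not detected on any array. The relative FOXA1 averaged 12.85, CEBPB, an acute-phase regulator, 12.89, and XBP1, the effector of the unfolded protein response needed by secretory cells, 13.25. PROX1 and HHEX, which act when the liver bud forms, averaged 10.17 and 9.96, near the median of all detected genes. The xenobiotic receptor NR1I3 (CAR), which induces drug-metabolising enzymes, was the 1 member not detected on any array. For another 6 listed factors no probe was analysed here.

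Genes of amino acid, urea and glucose metabolism were split by step. Of 44, 35 (79.5%) were detected, against 53.9% of all named genes, and for another 9 listed genes no probe was analysed here. Of the 35, 8 were abundant, while 8 members were not detected on any array. LDHA, the lactate dehydrogenase subunit of glycolytic tissue, averaged 14.97, and the glucose carriers SLC2A3 and SLC2A1 averaged 14.88 and 13.39. GLDC, which cleaves glycine in mitochondria, averaged 13.69. In the urea cycle, ASS1, which joins citrulline to aspartate, read 12.51, 12.55 and 12.56, and CPS1, which makes the first intermediate, read 9.95, 9.92 and 10.18. OTC, the next enzyme, read 6.46, 6.68 and 6.99, within the range of stray signal, and ARG1, the liver arginase that releases urea, averaged 4.94 and was not detected on any array. ARG2, the mitochondrial arginase of other tissues, averaged 9.43. PC, which makes oxaloacetate, averaged 9.62, and PCK2, the mitochondrial enzyme for the next step of gluconeogenesis, averaged 12.12 with all 3 probes detected. PCK1, the cytosolic enzyme for the same step, and FBP1, which acts further along, were not detected. The other undetected members were TDO2 and HAL, which break down tryptophan and histidine, the muscle form FBP2, the liver glycogen synthase GYS2, and LDHB.

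Cytochrome P450 and conjugation enzymes ranged from abundant to undetected. Of 45, 23 (51.1%) were detected on all 3 arrays, close to the 53.9% of all named genes, with 3 detected on only 1 or 2 arrays and 19 on none. Among the 7 abundant members, AKR1C3 averaged 15.23, GSTA1, a glutathione transferase, 14.66, SULT2A1, a steroid sulfotransferase, 13.68, and MGST1, a membrane-bound glutathione transferase, 13.66. The other probes of MGST1 averaged 9.35, 8.42 and 4.66, the last not detected on any array. Of the P450 genes, CYP27A1, a mitochondrial enzyme of bile acid synthesis, was abundant at 13.06, 13.19 and 13.42. CYP4F3 and CYP4F2, which hydroxylate fatty acids and leukotrienes, averaged 10.18 and 8.76, and CYP3A5 averaged 7.86. AKR1C3 and AKR1C2 are close relatives, so their signals may overlap. FMO5 and ADH6, an oxidase and an alcohol dehydrogenase, averaged 10.09 and 10.18. CYP3A7, the main fetal liver P450 in humans, read 7.17, 7.24 and 7.48, detected on every array but within the range of stray signal by its mean of 7.30. CYP3A4, which takes its place after birth, averaged 4.84 and was not detected on any array. CYP1A2 (4.72), CYP2E1 (5.42), CYP2A6, CYP2B6, CYP2C8 and CYP2J2, which oxidise drugs and other small molecules, were not detected either. The same held for CYP7A1, the rate-limiting enzyme of bile acid synthesis (4.72), the vitamin D hydroxylase CYP2R1, the fatty acid hydroxylase CYP4A11, the steroid hydroxylase CYP17A1 and UGT1A1, which conjugates bilirubin.

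Hepatocyte membrane proteins ranged from abundant to undetected. Of 32, 22 (68.8%) were detected, against 53.9% of all named genes. Of the 22, 16 lay above the highest olfactory receptor and 6 were abundant, while 9 members were not detected on any array. ASGR1, the receptor that clears desialylated glycoproteins, read 14.64, 14.67 and 14.84, and its partner ASGR2 averaged 12.99. TFRC, which imports transferrin-bound iron, averaged 13.69, and ABCA1, which loads cholesterol onto APOA1, averaged 12.95. ABCG8, a sterol exporter of the bile canaliculus, averaged 9.38. LPIN2, counted in this list though a phosphatidate phosphatase and not a transporter or receptor, averaged 9.76. SLCO1B1, a drug and bilirubin importer, read 5.64, 5.80 and 5.96, the lowest level among the detected members and within the range of stray signal. SLC10A1, the bile acid importer known as NTCP and used by hepatitis B virus, averaged 5.14 and was not detected on any array. Neither were SLCO1B3, a relative of SLCO1B1, the canalicular exporters ABCB11 and ABCB4, the transporter ABCG2, the hormone receptors GHR, GCGR and LEPR, or CLRN3.

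**Figure D3:**
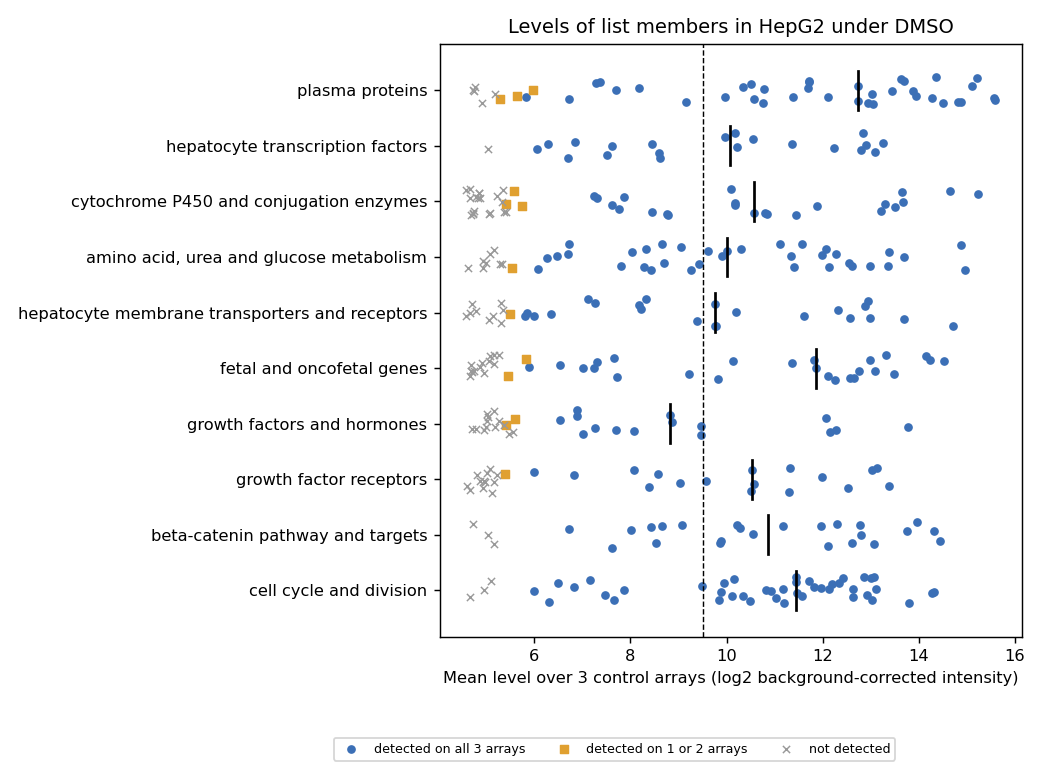
Mean level over the 3 HepG2 control arrays (x axis, log2 background-corrected intensity) of each member of 10 gene lists (rows, points spread vertically for legibility), marked by detection. Short black bars are medians of detected members, 12.74 for plasma proteins and 8.82 for growth factors, and the dashed line is the median of all detected genes, 9.50.

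Fetal and oncofetal genes were present at both extremes. Of 40, 25 (62.5%) were detected on all 3 arrays, against 53.9% of all named genes, and 13 were not detected on any array. Of the detected members 20 lay above the highest olfactory receptor and 10 were abundant, and the median of the detected members was 11.86. DLK1, an imprinted inhibitor of differentiation made by hepatoblasts, read 14.40, 14.47 and 14.73. AFP, the fetal counterpart of albumin and a serum marker of liver tumours, read 14.18, 14.26 and 14.28, a mean of 14.24 ± 0.05 (SD, n = 3). PEG3, an imprinted zinc finger gene, averaged 14.15, and S100P, a calcium-binding protein first found in placenta, averaged 13.48. GPC3, a proteoglycan used to diagnose hepatocellular carcinoma, read 11.81, 11.67 and 11.96, above the upper quartile but below the abundant class. LIN28B, which blocks let-7 maturation, read 12.16, 12.16 and 12.05, while its paralogue LIN28A was not detected. The RNA-binding proteins IGF2BP2, IGF2BP3 and IGF2BP1, which bind IGF2 and other transcripts, averaged 12.26, 11.86 and 7.02, the last within the range of stray signal.

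At the imprinted IGF2 and H19 pair, signal was low or lacking. IGF2, the fetal growth factor, read 6.60, 6.30 and 6.71 on the brightest of its 3 probes, 1 of which was not detected on any array, and its mean of 6.53 lay within the range of stray signal. H19, the noncoding RNA next to it, averaged 4.75 and was not detected on its single probe. MEG3, the noncoding RNA that shares an imprinted domain with DLK1, was not detected either. Also not detected were SALL4, a stem cell zinc finger factor, the embryonic and fetal globins HBG1, HBE1 and HBZ, the surface proteins CD44, THY1 and NCAM1, GOLM1 and TFF1. SULF2, which trims heparan sulfate, and PROM1, the surface protein CD133, averaged 9.82 and 9.23.

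Ligands of growth factor pathways had the lowest median level of the signalling lists. Of 30, 15 (50%) were detected, close to the 53.9% of all named genes. Of the 15, 10 lay above the highest olfactory receptor and 1 was abundant, and the median was 8.82. MST1, a hepatocyte-derived ligand of the receptor MST1R, averaged 13.77. INHBE, an activin subunit made by liver, averaged 12.28, VEGFB 12.16, and GDF15, a stress-induced hormone, read 12.38, 12.25 and 11.61. The other probes of VEGFB averaged 8.77 and 5.21, the last detected on only 1 array. Replicate 3 was the lowest array for GDF15 and for INHBE, with an SD of 0.41 for GDF15. FST, an activin antagonist, and ANGPTL8, a regulator of lipoprotein lipase, averaged 9.48 each. The liver hormones IGF1 and FGF21, and FGF19, a ligand of FGFR4, were not detected on any array, nor were FGF2, HGF, EGF, NRG1, ANGPT1, ANGPT2, TGFB1, TGFB2 and INHBA.

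Receptors for such ligands were detected in a share close to that of all genes, 17 of 30 (56.7%), with 4 abundant. IGF2R, which carries lysosomal enzymes and clears IGF2, averaged 13.39. FGFR3 averaged 13.14 on its brightest probe, while its other probe averaged 6.64, within the range of stray signal. FGFR4, the main FGF receptor of hepatocytes, read 12.89, 12.97 and 13.24. Its other probes averaged 10.86 and 4.75, the last not detected on any array. FGFR1 and FGFR2 were not detected on any array. In the EGF receptor family, ERBB2 read 11.82, 12.10 and 12.05 on 1 probe while 2 others were not detected, and ERBB3 read 11.39, 11.18 and 11.34 with all 3 probes detected. EGFR read 9.60, 9.58 and 9.54, with 2 of its 4 probes not detected, and ERBB4 was not detected. MET, the receptor of hepatocyte growth factor, read 8.68, 8.45 and 8.60. TGFBR2 averaged 12.52 and BMPR2 9.04, while TGFBR1 was not detected. The insulin family receptors IGF1R and INSR were low: IGF1R read 6.61, 6.71 and 7.16, and INSR 5.95, 6.13 and 5.87, both within the range of stray signal by their means. The vascular and stromal receptors KDR, FLT1, FLT4, PDGFRA, PDGFRB and KIT were not detected on any array, nor were FLT3 and MST1R.

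The list of RAS and PI3K signalling genes and secreted IGF-binding proteins was widely detected without any abundant member. Of 27, 23 (85.2%) were detected, against 53.9% of all named genes, with a median of 9.95. For another 8 listed genes no probe was analysed here. RHEB, the GTPase that activates mTOR, averaged 12.29, AKT1 12.14, and MAPK3, which encodes ERK1, 12.08. SHC1 and IRS1, adaptors of tyrosine kinase receptors, averaged 11.36 and 9.95, and MAP2K2, the kinase of ERK, averaged 9.95. The other probes of SHC1 averaged 6.47, within the range of stray signal, and 4.67, not detected on any array. AKT2 and the IGF-binding proteins IGFBP3 and IGFBP5 were not detected on any array. IGFBP1, a secreted product of liver, read 6.22, 6.84 and 6.19, within the range of stray signal.

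Beta-catenin signalling was represented by most of its genes. Beta-catenin enters the nucleus when Wnt ligands block its destruction, and the pathway switches on a set of its own inhibitors. Of 27 components and targets, 24 (88.9%) were detected, against 53.9% of all named genes. The 24 had a median of 10.87, and 8 of them were abundant. DKK1, a secreted Wnt antagonist, read 14.51, 14.54 and 14.26, while its second probe averaged 7.83. CCND1, the cyclin that starts the division cycle, read 14.34, 14.37 and 14.23. BAMBI, a decoy receptor of TGF-beta signalling, averaged 13.97. TNFRSF19, a receptor of the TNF family, averaged 13.75 on its brightest probe. Its other probes averaged 8.31, 6.71 and 5.30, the last not detected on any array. The negative feedback targets AXIN2 (12.98, 13.13 and 13.07), NKD1 (12.79), NOTUM (12.30) and ZNRF3 (12.12) were all above the upper quartile, and RNF43 averaged 9.85. LGR5, a stem cell receptor that amplifies Wnt signals, averaged 8.67. GLUL, the glutamine synthetase that beta-catenin drives around the central vein, averaged 6.71, and its 2 detected probes both lay within the range of stray signal. The destruction complex gene APC, the repressor TCF7L1 and LECT2, a secreted hepatocyte protein, were not detected on any array. CTNNB1 itself averaged 10.56, with 2 of its 7 probes detected on all arrays and 4 on none.

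**Figure D4:**
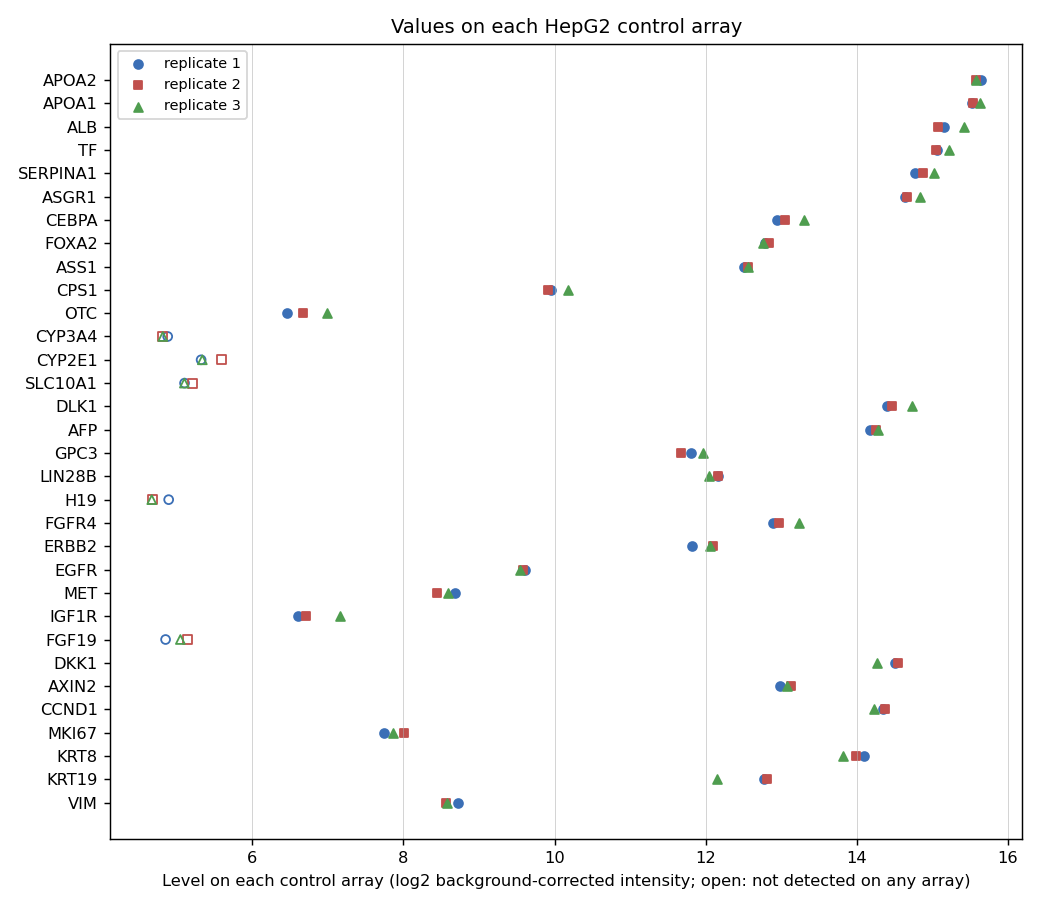
Level of 32 genes (rows) on each of the 3 HepG2 control arrays (x axis, log2 background-corrected intensity), with circles, squares and triangles for replicates 1, 2 and 3 and open symbols for genes not detected on any array. Liver secretory genes such as APOA2 and ALB lie above 15, and AFP and DLK1 near 14.2 to 14.7. CYP3A4, CYP2E1, SLC10A1, H19 and FGF19 lie near 5.

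Cell cycle genes were detected almost throughout. Of 46, 43 (93.5%) were detected, against 53.9% of all named genes. The 43 had a median of 11.44, and 11 of them were abundant. MCM3, a subunit of the replicative helicase, averaged 14.27, CDC20, which triggers anaphase, 13.11, and CDKN1A, the p53-induced inhibitor p21, read 13.91, 13.90 and 13.56 with its other probe not detected. MYC, a transcription factor that drives growth, read 11.92, 12.03 and 11.97, and CCND2 and RB1 averaged 9.84 and 9.49. MKI67, the source of the Ki-67 antigen of dividing cells, read only 7.74, 8.01 and 7.86 on its single probe, just inside the moderate class. CCNE2, CDKN1C and MYCN were not detected on any array. CDKN2A averaged 6.00, within the range of stray signal, with 2 of its 3 probes not detected.

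Epithelial and bile duct genes were detected in shares close to the 53.9% of all named genes. Of 29 junction and cytoskeleton genes, 17 (58.6%) were detected, with EZR, a membrane-cytoskeleton linker, at 14.33, KRT8, the keratin of simple epithelia, at 13.97, CTNNA1 at 13.76 and the cadherin CDH2 at 13.64. CDH1, the epithelial cadherin, read 12.42, 12.42 and 11.78. KRT18, which pairs with KRT8 in hepatocytes, averaged 5.66. It was detected on 2 arrays with 1 probe and on none with the other, while KRT8 was in the abundant class. GJB1, the gap junction protein of hepatocytes, and CLDN14 averaged 10.29 and 9.62. The other probes of CLDN14 averaged 6.44, within the range of stray signal, and 4.70, not detected on any array. OCLN, CLDN3, CLDN7, the keratins KRT7, KRT20, KRT5 and KRT14, and the epithelial regulators ESRP1 and GRHL2 were not detected. Of 13 bile duct genes, 8 (61.5%) were detected, among them SPP1 at 14.75, EPCAM at 12.99, KRT19 at 12.77, 12.81 and 12.15, and SOX9 at 12.14. The bile duct keratin KRT7, MUC1, SCTR and BICC1 were not detected on any array.

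Markers of the other cells of liver and of other organs were mostly undetected. The share to set beside their counts is the 53.9% of all named genes that were detected. Of 17 endothelial markers only ESAM was detected, at 8.59, 8.63 and 7.75, and PECAM1, VWF, CDH5, KDR, TEK, STAB1 and STAB2 were not. Of 20 stellate cell and fibroblast markers 4 were detected. These were ACTA2 at 13.55, TAGLN at 11.11, VIM at 8.62 and RGS5 at 6.56, the last within the range of stray signal. The other probe of VIM averaged 4.75 and was not detected on any array. The other probes of TAGLN averaged 7.99 and 5.10, the last not detected on any array. COL1A1, COL1A2, COL3A1, PDGFRB, LUM, DCN and LRAT were not detected on any array. ACTA2 and TAGLN encode contractile proteins and VIM a filament of mesenchymal cells. Actin genes are similar in sequence, so the level of ACTA2 is uncertain.

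Of 24 blood and immune markers 8 (33.3%) were detected, against 53.9% of all named genes. They were led by LYZ (lysozyme) at 12.63 and CD74, the chaperone of class II histocompatibility proteins, at 12.37. CD68, a lysosomal protein, averaged 10.04 and CD14 averaged 8.22. The other probe of CD14 averaged 4.93 and was not detected on any array. CD8A, a co-receptor of T cells, averaged 8.13 and 7.97 on its 2 detected probes, with a further probe not detected. HLA-DRA, a class II histocompatibility protein, averaged 7.72, with its other probe not detected on any array. CD79A, of the B cell receptor, and C1QA, of complement, averaged 6.62 and 5.81, both within the range of stray signal. The pan-leukocyte gene PTPRC and the lineage genes CD3D, CD3E, CD4, MS4A1, CSF1R, CD163 and ITGAM were not detected on any array. Of 13 red cell genes HBA2, an alpha-globin gene, averaged 7.39 and AHSP, its chaperone, 5.87, neither above the highest olfactory receptor, and the beta-globin gene HBB and GATA1 were not detected.

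Among markers of other organs, 7 of 17 nerve and glia genes (41.2%) were detected, against 53.9% of all named genes. Of these 7, 3 lay above the highest olfactory receptor, namely TUBB3 at 13.43, ENO2 at 11.29 and NES at 9.19. PAX6 averaged 7.25. SNAP25, GFAP, DCX and STMN2 were not detected. TUBB3 is a tubulin of neurons and ENO2 a neuronal enolase. VIL1, a microvillus protein, averaged 11.25 and TFF3, a mucosal peptide, 9.61 among 4 of 16 gut genes detected, and CDX2 and FABP2 averaged 6.07 and 5.80, within the range of stray signal. CKM, ACTA1, TNNI2 and TNNC2, at 9.45, 8.33, 7.60 and 7.35, were the 4 of 15 muscle genes detected. PAX8 at 7.36 and SLC34A1 at 5.98 were the 2 of 13 lung, kidney and thyroid genes, both within the range of stray signal, as was TNNC2. None of 15 pancreas genes and none of 17 germ cell and pluripotency genes was detected on all 3 arrays, with AMY2A detected on only 1 array in the first list and MAGEA3, CTAG1B and PRAME on only 1 array each in the second. The undetected genes included PDX1, INS, GCG and PRSS1 in the pancreas list and POU5F1, NANOG and SOX2 in the other.

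The control arrays differed little for most genes, with a median SD of 0.11. After quantile normalization 83 detected genes (0.769%) had an SD above 0.5, a count that depends on the processing: it was 484 without normalization between arrays, 161 with median scaling, 17 on the values the authors processed and 14 when background was left uncorrected. Of the 8 with the largest SD, FZD2, a Wnt receptor, read 7.62, 8.06 and 5.88, MYBPH, a myosin-binding protein, 10.42, 10.54 and 8.62, and DUSP5, a phosphatase of ERK, 9.41, 9.29 and 7.82. BFSP1 and DPYSL3 were lowest on replicate 3 as well. EFR3B was lowest there on its brightest probe at 7.56, 7.39 and 5.90, but highest there on its other probes, at 6.78, 6.85 and 7.02 and at 5.81, 6.47 and 6.50. PTGDR2, a prostaglandin receptor, was highest there at 7.70, against 5.88 and 5.95, and NUP43, a nuclear pore protein, was lowest on replicate 2. The means of FZD2, EFR3B, BFSP1 and PTGDR2 lay within the range of stray signal. In the quantile normalized values, replicate 3 lay below both other arrays by more than 0.5 for 190 genes, against 37 for replicate 1 and 69 for replicate 2, and above both by more than 0.5 for 82 genes, against 44 and 35.

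Liver genes tended to be highest on replicate 3, a pattern picked out after the values were seen. Of 37 detected plasma protein genes, 32 (86.5%) had their highest value on replicate 3, against 3983 of all 10800 detected genes (36.9%), and their median difference from the mean of the other arrays was 0.175, against 0.002 over all genes. The counts were 18 of 23 for P450 and conjugation enzymes, 17 of 22 for membrane transporters and receptors and 22 of 35 for amino acid, urea and glucose metabolism. Hepatocyte transcription factors (9 of 20), fetal genes (10 of 25), cell cycle genes (12 of 43) and ribosomal protein genes (19 of 67) did not stand out in this way. The dim olfactory receptors had 8 of 10 highest on replicate 3, with a median difference of 0.175 as well. The order depended on the scaling: without normalization between arrays replicate 3 was highest for 2 of 37 plasma protein genes and 165 of all genes, with medians of -0.18 and -0.44, and with median scaling of the arrays for 18 of 37 and 958. Replicate 3 also had the lowest mean intensity, and the part of signal strength in this pattern was not tested.

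**Figure D5:**
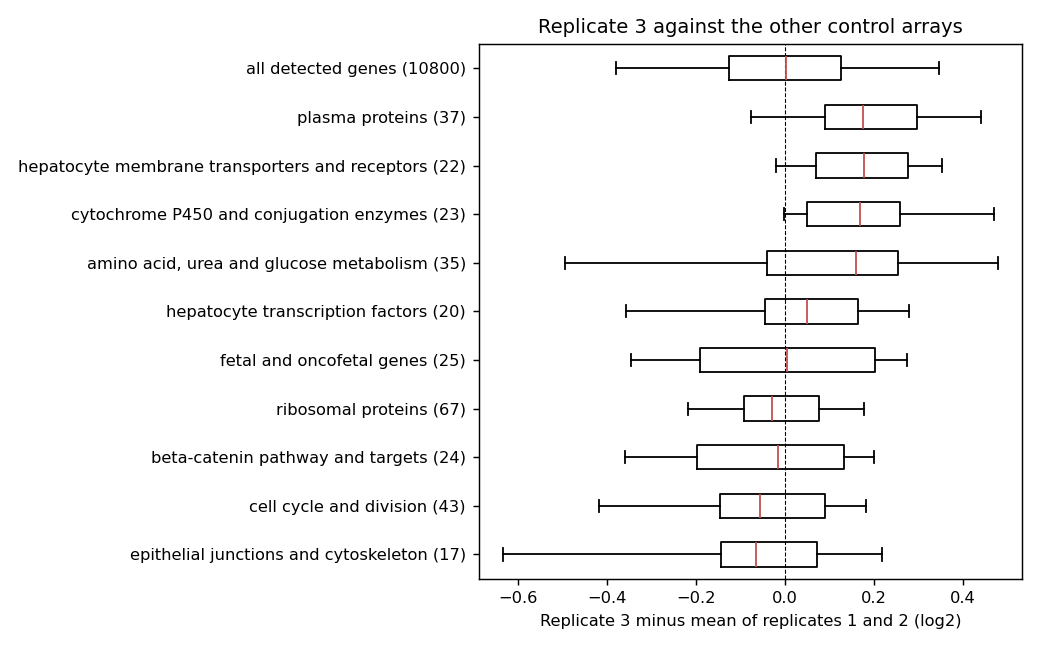
Difference of replicate 3 from the mean of replicates 1 and 2 (x axis, log2) for the detected genes of each list (rows, number of genes in brackets); boxes span the quartiles, red lines are medians and whiskers reach the 5th and 95th percentiles. The medians of plasma proteins, transporters and P450 enzymes lie between 0.169 and 0.177, against 0.002 for all detected genes, after quantile normalization; without normalization the median for plasma proteins is -0.18, against -0.44 for all genes.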

How the data were processed

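The authors deposited, per the file headers, a probe intensity and a detection p-value for each probe on each array. No source used here names the scanner software. The values look unnormalized, since medians differ between arrays (120 to 141). Groups came from the sample titles, and the sorafenib arrays were not read. Background was corrected with limma's neqc (normexp, offset 16; background estimated through the detection p-values), then the 3 arrays were quantile normalized and put on a log2 scale. The authors also deposited processed log2 values, quantile normalized over 6 arrays, which served only as an alternative.

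The platform annotation names 30113 probes with a single symbol, 8 with several and 17202 with none; 30074 matched RefSeq (GRCh38.p14) by gene number. No probe coordinates are given because no build is named. The members and gene lists were chosen with earlier results of these data known, and no count over a list supports anything beyond its description. Genes named are the 20 brightest; in each list the 4 brightest, the 2 nearest the median and up to 12 undetected members; the 8 with the largest SD; and 44 fixed genes, 42 of them analysed here. Of list members that the rule takes, some are given by count only. SERPINA1, APOH, SAA4, FGA, FGB, FGG, F2, APOE, APOB, APOC1, APOC3, ORM1, ORM2, HAMP, TTR, LIN28B, IGF2BP1, IGF2BP2, IGF2BP3, IGFBP1, NKD1, NOTUM, ZNRF3, CTNNB1, CDKN2A, PCK2, CYP27A1, CYP4F2, CYP4F3, CYP3A5, CD8A, CD79A, HLA-DRA, C1QA, AMY2A, MAGEA3, CTAG1B, PRAME and the metallothioneins were named after their values were seen, as were the promoters and the lists taken by symbol pattern. The number of arrays limits the precision. The calculation was tested on simulated data. Alternatives covered background correction, normalization, the detection threshold, the probe rule and leaving out each array. R 4.3.3, limma 3.58.1, Python 3.11.15 and matplotlib 3.10.9 were used.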

Additional observations from a re-analysis of the deposited data

How the results depend on the processing

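The number of genes detected on all 3 control arrays was 10800, and 10008 at a detection p under 0.01, 11416 with 2 of 3 arrays required and 10963 to 11053 without 1 array. Of the 100 brightest genes, 96 to 100 stayed among the 100 brightest under the other settings, except for the mean of a gene's detected probes, where 68 did. Lists with few detected members moved most in proportion. At a detection p under 0.01, detected members numbered 1 for red cells, 2 for intestine and stomach, 1 for lung, kidney and thyroid, 2 for olfactory receptors and 0 for keratin-associated proteins. With 2 of 3 arrays required they numbered 3 for endothelial cells, 16 for olfactory receptors and 2 for keratin-associated proteins. Without 1 array, endothelial cells had 1 to 2 and keratin-associated proteins 1 to 2 detected members. Genes with an SD above 0.5 numbered 83, and 14 without background correction, 33 with an offset of 50, 484 without normalization, 161 with median scaling and 17 on the authors' processed values. Levels of dim genes depend on the background step: the median level was 9.50, and 9.72 without background correction. No paired analysis was possible because only the control arrays were described and no groups were compared.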

Other observations

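Metallothioneins, small proteins that bind zinc and copper, were bright in HepG2 under DMSO. Of 10 genes with a probe, 7 (70%) were detected on all 3 arrays, against 53.9% of all named genes, and 4 of the 7 were abundant. MT1G averaged 15.06, MT1F averaged 14.43, MT1E 14.39 and MT2A 13.89, while MT1M averaged 8.67 and MT1B was not detected on any array. These genes are similar in sequence, so their probes may share signal. All 7 had their highest value on replicate 3 after quantile normalization, against 36.9% of all detected genes. With median scaling 4 of 7 did, against 8.87% of all detected genes. Without normalization between arrays 1 of 7 did, against 1.53%, and 5 of 7 were lowest there, against 93.3%.

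Shares detected differed by kind of gene. How well the labelled cRNA and the probes capture short RNAs was not tested. Of 17776 protein-coding genes 10285 (57.9%) were detected on all 3 arrays, against 195 of 798 long noncoding RNA genes (24.4%), 85 of 279 snoRNA genes (30.5%) and 16 of 561 miRNA genes (2.85%). Keratin-associated proteins, structural genes of hair, had 1 of 81 members detected.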
